A study of Rattus norvegicus with 12 samples.

Results

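The genes of albumin, alpha-fetoprotein and other plasma carrier proteins, 10 in all, were followed in fetal rat liver: Alb, Afp, Ttr, Tf, Hrg, Ahsg, Fetub, Azgp1, Ambp and A2m. They were chosen by name, and the members are the probes that the platform table links to these genes. Each of the 10 genes had 1 probe on the array, and 10 of 10 passed the filter on dim probes, among 10174 genes tested of 14497 named. The livers came from Sprague Dawley fetuses at day 19 of gestation, term being day 21. Control dams ate freely until delivery by C-section. The other dams had no food for 48 hr starting on day 17, which limits the growth of the fetuses. Each diet had 3 dams. Total liver RNA and RNA from polysomes, the sucrose gradient fractions in which a message carries several ribosomes, went to separate Affymetrix Rat Gene 1.0 ST arrays. This gave 4 groups of 3 arrays, named here by diet and RNA (fed total to fasted polysome). The labels call the arrays of a group biological replicates, and do not say whether 1 array stands for 1 fetus or for a litter. They describe the polysome preparations as pooled, and the 2 kinds of RNA were extracted by different methods.

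Hepatocytes secrete most of the protein of plasma. Albumin and alpha-fetoprotein are neighbouring members of one gene family; alpha-fetoprotein is the main albumin-like protein of fetal plasma and is switched off after birth, while albumin persists and carries fatty acids, bilirubin and hormones. Transthyretin (Ttr) carries thyroxine and the retinol-binding protein, and transferrin (Tf) carries iron. Fetuin-A (Ahsg), fetuin-B (Fetub) and histidine-rich glycoprotein (Hrg) are type 3 cystatins of plasma: fetuin-A keeps calcium phosphate in solution, fetuin-B inhibits the ovastacin protease of fertilisation, and Hrg binds heparin, haem and metal ions. Ambp encodes a precursor that is cut into alpha-1-microglobulin, a haem-binding lipocalin, and bikunin, a protease inhibitor. A2m traps proteases and binds cytokines, and in the rat it is an acute phase protein that is also made by fetal liver. Azgp1 encodes zinc-alpha-2-glycoprotein, a protein of class I MHC fold linked to lipid mobilisation. These messages are translated on ribosomes bound to the endoplasmic reticulum.

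In the RefSeq table, 0 other protein-coding genes lie between Afp and Alb, between Hrg and Fetub, or between Fetub and Ahsg. Promoter windows were held for 7 of the 10 genes, and those of Alb and Afp are shown because these neighbours are the classic pair of fetal and adult plasma carriers. Each runs 5′ to 3′ on the gene's strand, from base -250 to base -31 before the RefSeq start in build GRCr8. Alb lies on the minus strand at chr14:17907010-17907229 and Afp on the minus strand at chr14:17875676-17875895. The Alb gene spans 17891564 to 17907043 in the RefSeq table, so its window overlaps that span. Positions in the Alb window thus count from a start inside the span. Capitals mark the letters of 5 motifs searched on both strands. These were GTTAAT for one arm of the HNF1 site, TTNNGNAA for C/EBP factors, CCAAT for the box of that name, TATAAA for the TATA box and TGTTTNC for FOXA factors.
Alb: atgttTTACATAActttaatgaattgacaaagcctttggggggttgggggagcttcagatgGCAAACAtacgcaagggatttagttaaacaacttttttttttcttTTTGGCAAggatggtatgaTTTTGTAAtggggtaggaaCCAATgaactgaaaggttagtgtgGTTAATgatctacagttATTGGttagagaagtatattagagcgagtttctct
Afp: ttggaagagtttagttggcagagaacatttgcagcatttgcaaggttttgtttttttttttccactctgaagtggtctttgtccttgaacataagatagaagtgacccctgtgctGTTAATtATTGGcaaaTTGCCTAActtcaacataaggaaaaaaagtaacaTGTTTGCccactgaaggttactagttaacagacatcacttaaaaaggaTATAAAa

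The Alb window held 7 matches and the Afp window 5, and 0 of their bases fell in more than 1 motif. GTTAAT stood at -82 to -77 in Alb and at -135 to -130 in Afp, and 5.94% of 33469 windows of this length held it. The windows of Ttr, Tf, Ahsg, Azgp1 and Ambp did not hold it. The C/EBP letters occurred at 3 places in Alb and 1 in Afp (34.3% of windows), and CCAAT at 2 places in Alb and 1 in Afp (31.2%). FOXA letters occurred once in each (16.4%). TATAAA stood at -37 to -32 in Afp (11.1%) and was not among the letters of the Alb window. A match is a description of the letters only.

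The arrays were alike in overall signal. Array medians lay between 101.3 and 108.3 intensity units, and arrays of a group correlated at 0.9914 to 0.9961 over all probes on the log2 scale. The liver label was checked on 12 hepatocyte markers that are not among the 10 genes. Of these, 11 passed the filter, Tat being the exception, and the mean of the 12 lay at 12.33 to 12.46 log2 in total RNA and 12.09 to 12.26 in polysome RNA. Markers of erythroid cells, which fill the fetal liver, had a mean of 12.62 to 12.74 log2 over 7 genes. Exocrine pancreas markers had a mean of 6.48 to 7.64 log2 in fed total RNA against 6.32 to 6.36 in fasted total RNA, over 9 genes. All values are signals in bulk tissue, where fewer cells of a type and less RNA per cell cannot be told apart.

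The probes of 8 of the 10 genes were among the 102 brightest of 28826 by mean signal, with Alb at rank 7. Intensity there left little room above: the Alb probe read 73.6% to 91.8% of the highest probe on its array, and 4 to 10 probes on an array read higher. Ranks describe the signal of probes and do not order the transcripts. Hrg (rank 1983) and Azgp1 (rank 3578) had probes of middle brightness. Differences between arrays were smaller at the top of the range. Among the 95 genes with a mean of at least 13 log2, which include these 8, the median absolute change with fasting in total RNA was 0.033 log2, against 0.098 for the 1488 genes between 10 and 11 log2. The largest absolute difference between polysome and total RNA in fed livers was 0.74 log2 in the brightest class and 1.75 in the class that holds Hrg and Azgp1. Whether the brightest probes were saturated was not tested, since scanner values were not analysed here; small differences of these 8 genes are to be read with that in view.

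**Figure D1:**
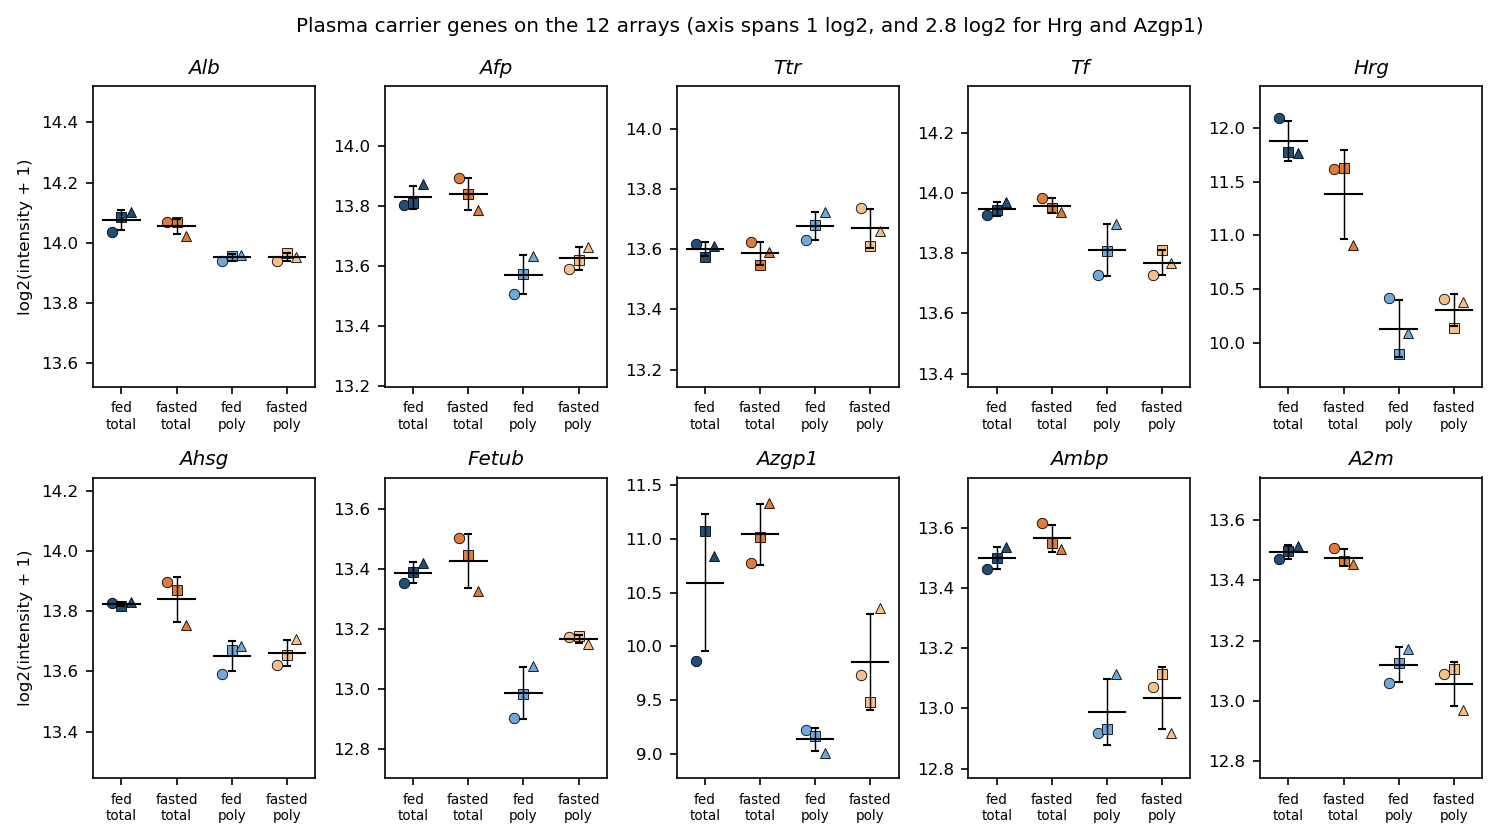
Signal of each of the 10 genes on the 12 arrays, in log2(intensity + 1); circles, squares and triangles are replicates 1, 2 and 3, bars the mean of 3 arrays and error bars the SD. Alb spans 13.94 to 14.10 log2 over all arrays, while Hrg and Azgp1, on wider axes, spread most.

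The first question was whether maternal fasting altered these messages in the fetal liver. In total RNA, 0 of the 10 genes passed limma's test (adjusted p under 0.05), where 1.03% of all genes tested did, and 1 of the 10, Hrg, had an unadjusted p under 0.05, as 16.2% of all genes had. In polysome RNA, 0 of the 10 passed, where 2.01% of all genes did, and 2 of the 10, Fetub and Azgp1, had an unadjusted p under 0.05, as 20.9% of all genes had. The median change of the 10 genes was 0.011 log2 in total RNA and 0.028 in polysome RNA, beside 0.00067 and 0.016 over all genes tested. Changes are fasted minus fed differences of log2(intensity + 1), and the SE beside each is the standard error from the model, with n = 3 arrays a group. The 23 alternative settings called 0 of the 10 genes in either RNA. Of the cell type markers, 0 of 11 for hepatocytes passed in either RNA, while 3 of 8 endothelial markers were higher after fasting in total RNA, and 1 of 8 endothelial, 2 of 10 macrophage and 2 of 10 stellate markers were higher on polysomes. In total RNA 1 of 6 exocrine pancreas markers was lower after fasting, with a list median of -0.52 log2. Their part in the values of the 10 genes was not tested.

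Albumin had the smallest residual SD of the 10, 0.023 log2, on the probe nearest the top of the signal range. Its intensity was 16812, 17384 and 17593 in fed total arrays 1 to 3, and 17202, 17179 and 16656 in the fasted total arrays. On polysomes it was 15710, 15881 and 15931 in fed livers and 15716, 15984 and 15848 in fasted livers. The diets overlapped in both kinds of RNA. The change was -0.021 ± 0.060 SE log2 in total RNA (95% interval -0.15 to 0.11, limma adjusted p = 0.91) and 0.0008 ± 0.060 on polysomes (-0.13 to 0.13, limma adjusted p = 0.996).

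Alpha-fetoprotein behaved in the same way across diets. Afp read 14302, 14350 and 14982 in fed total RNA and 15193, 14651 and 14135 in fasted total RNA. On polysomes it read 11628, 12174 and 12716 in fed livers and 12328, 12600 and 12985 in fasted livers. The groups overlapped again, and the change was 0.011 ± 0.066 SE log2 in total RNA (-0.13 to 0.15) and 0.055 ± 0.066 on polysomes (-0.087 to 0.20), with limma adjusted p of 0.96 and 0.685. The sign of a value this small was not settled: in total RNA that of Afp turned in 2 of 23 alternatives, and on polysomes that of Alb in 4 of 23. The family members outside the 10 genes, Gc, the vitamin D-binding protein, and Afm, the vitamin E-binding afamin, measured -0.034 ± 0.069 and 0.091 ± 0.12 log2 in total RNA (limma adjusted p = 0.866 and 0.777) and -0.10 ± 0.069 and -0.15 ± 0.12 on polysomes (limma adjusted p = 0.446 and 0.511).

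The thyroxine and iron carriers also overlapped between diets. Ttr read 12573, 12189 and 12502 in fed total and 12623, 11973 and 12333 in fasted total RNA, a change of -0.013 ± 0.065 SE log2 (limma adjusted p = 0.951). On polysomes it read 12673, 13130 and 13529 in fed and 13662, 12498 and 12957 in fasted livers, a change of -0.0084 ± 0.065 (limma adjusted p = 0.958). Each diet thus held arrays above and below those of the other. Tf read 15560, 15744 and 16058 in fed total and 16213, 15826 and 15702 in fasted total RNA (0.011 ± 0.066 log2, limma adjusted p = 0.959). On polysomes it read 13558, 14322 and 15272 in fed and 13559, 14371 and 13929 in fasted livers (-0.043 ± 0.066, limma adjusted p = 0.766).

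Among the cystatins, Hrg had the most negative change of the 10 in total RNA, without passing the test. It read 4357, 3515 and 3473 in fed total arrays and 3136, 3156 and 1918 in fasted total arrays, so that the fasted arrays all lay under the fed ones. The change was -0.50 ± 0.18 SE log2 (95% interval -0.89 to -0.10, limma adjusted p = 0.202). Fasted total array 3 was far below the other 2, and without it the change was -0.26. On polysomes Hrg read 1362, 949 and 1091 in fed and 1357, 1123 and 1329 in fasted livers, overlapping groups with a change of 0.17 ± 0.18 log2 (limma adjusted p = 0.637). Groups that did not overlap between diets were seen for this 1 gene of the 10 in total RNA, and for 24.7% of all genes tested. A gene named Hrg l1 lies near Hrg in the RefSeq table, and whether the Hrg probe shares its signal was not tested.

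The fetuins did not pass either. Ahsg read 14531, 14436 and 14569 in fed total and 15249, 14964 and 13828 in fasted total RNA, a change of 0.015 ± 0.066 SE log2 (limma adjusted p = 0.945). On polysomes it read 12351, 13045 and 13178 in fed and 12588, 12898 and 13368 in fasted livers, a change of 0.011 ± 0.066 (limma adjusted p = 0.946). Both comparisons of Ahsg had overlapping groups. Fetub read 10456, 10734 and 10960 in fed total and 11613, 11154 and 10275 in fasted total RNA, also overlapping (0.038 ± 0.071 log2, limma adjusted p = 0.85). On polysomes Fetub read 7659, 8106 and 8633 in fed and 9242, 9253 and 9093 in fasted livers, so that the fasted arrays all lay above the fed ones. That difference was 0.18 ± 0.071 log2 (0.025 to 0.33) and did not pass (limma adjusted p = 0.177, and 0.077 to 0.364 over the alternatives). The kininogens Kng1 and Kng2, plasma cystatins that release bradykinin, measured 0.031 ± 0.067 and 0.070 ± 0.075 log2 in total RNA and 0.072 ± 0.067 and 0.10 ± 0.075 on polysomes, and none of these passed (limma adjusted p = 0.872, 0.717, 0.585 and 0.48).

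The protease-binding proteins overlapped between diets as well. A2m read 11349, 11576 and 11700 in fed total and 11651, 11292 and 11226 in fasted total RNA (-0.019 ± 0.066 SE log2, limma adjusted p = 0.926). On polysomes it read 8534, 8940 and 9240 in fed and 8714, 8809 and 8023 in fasted livers (-0.065 ± 0.066, limma adjusted p = 0.625). Its relative Pzp, an alpha-macroglobulin, measured -0.0082 ± 0.066 log2 in total RNA (limma adjusted p = 0.968). The murinoglobulins Mug1 and Mug2, monomeric forms of the same family, measured 0.94 ± 0.45 and 0.75 ± 0.31 log2 in total RNA without passing (limma adjusted p = 0.327 and 0.255). The Mug1 value ran from 0.58 without fasted total array 3 to 1.41 without fasted total array 2. Mug1 and Mug2 are close copies, and how far their probes share signal is uncertain. Ambp read 11293, 11592 and 11884 in fed total and 12563, 11993 and 11826 in fasted total RNA (0.065 ± 0.077, limma adjusted p = 0.745). On polysomes Ambp read 7747, 7816 and 8874 in fed and 8598, 8873 and 7741 in fasted livers (0.045 ± 0.077, limma adjusted p = 0.788).

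Azgp1 varied more between arrays than any other of the 10, with a residual SD of 0.42 log2 against 0.023 for Alb. It read 933, 2147 and 1829 in fed total arrays and 1748, 2073 and 2579 in fasted total arrays. The low fed total array 1 set most of that difference: the change was 0.45 ± 0.27 SE log2 with it (limma adjusted p = 0.458) and 0.088 without it. Without fed total array 2 it was 0.69. Fed total array 1 also had the highest mean of the pancreas markers, 7.64 log2 beside 6.48 and 7.05 in fed total arrays 2 and 3. The part of that tissue in the Azgp1 change was not tested. On polysomes Azgp1 read 596, 574 and 514 in fed and 850, 715 and 1306 in fasted livers, and here the groups did not overlap. The change was 0.72 ± 0.27 log2 (95% interval 0.14 to 1.31), which did not pass (limma adjusted p = 0.154, and 0.0748 to 0.435 over the alternatives), and was 0.48 without fasted polysome array 3. On polysomes, 2 of the 10 genes, Fetub and Azgp1, had groups that did not overlap, and 20.8% of all genes tested had.

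**Figure D2:**
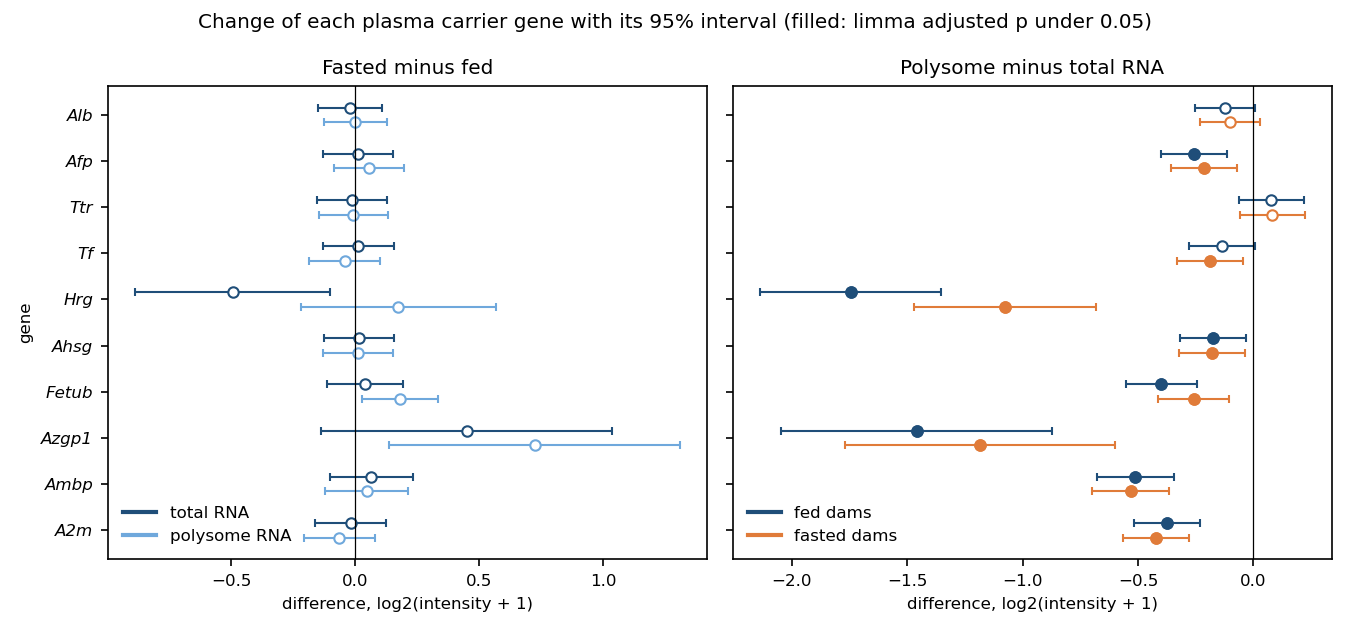
Difference of each of the 10 genes with its 95% interval from the limma fit, fasted minus fed on the left and polysome minus total RNA on the right, in log2(intensity + 1). No point of the left panel is filled, and 7 points in fed and 8 in fasted dams are filled on the right.

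The second comparison set polysome RNA against total RNA within each diet, to see how far each message was represented on polysomes. Of the 10 genes, 9 had a lower mean signal there. In fed dams 7 of the 10 were lower by limma (adjusted p under 0.05) and 0 higher, where 19.4% of all genes tested were lower and 24.1% higher. In fasted dams 8 of the 10 were lower and 0 higher, where 18.2% of all genes were lower and 25.5% higher. The median difference of the 10 genes was -0.32 log2 in fed and -0.24 in fasted dams, beside 0.042 and 0.054 over all genes. The arrays give each transcript's share of the signal, so lower means lower relative to the other transcripts of that RNA. Extraction differed between total and polysome RNA, and its effect and that of ribosome loading cannot be told apart.

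Hrg and Azgp1 had the widest gaps, Hrg first in fed dams and Azgp1 first in fasted dams. The Hrg polysome arrays, at 949 to 1362, all lay under its total arrays, at 1918 to 4357. It was 3.35-fold lower on polysomes in fed dams (-1.75 ± 0.18 SE log2, limma adjusted p = 1.12e-05) and 2.11-fold lower in fasted dams (-1.08 ± 0.18, limma adjusted p = 4.00e-04). Azgp1 was 2.75-fold lower in fed dams (-1.46 ± 0.27, limma adjusted p = 8.06e-04) and 2.27-fold lower in fasted dams (-1.18 ± 0.27, limma adjusted p = 0.0033). Within each diet, the Azgp1 polysome arrays lay under the total arrays without overlap.

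Ambp, A2m and Fetub formed a middle group. Ambp was 1.43-fold lower in fed dams (-0.51 ± 0.077 SE log2, limma adjusted p = 1.77e-04) and 1.44-fold lower in fasted dams (-0.53 ± 0.077, limma adjusted p = 1.29e-04). A2m was 1.3-fold lower in fed dams (-0.37 ± 0.066, limma adjusted p = 5.51e-04) and 1.34-fold lower in fasted dams (-0.42 ± 0.066, limma adjusted p = 2.28e-04). For both genes, the 6 polysome arrays read under the 6 total arrays. Fetub was 1.32-fold lower in fed dams (-0.40 ± 0.071, limma adjusted p = 5.91e-04) and 1.2-fold lower in fasted dams (-0.26 ± 0.071, limma adjusted p = 0.00997). Hrg, Azgp1, Ambp, A2m and Fetub passed in both diets under all 23 alternatives.

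The brightest genes differed least. Afp was 1.2-fold lower on polysomes in fed dams (-0.26 ± 0.066 SE log2, limma adjusted p = 0.00652) and 1.16-fold lower in fasted dams (-0.21 ± 0.066, limma adjusted p = 0.0182). The fasted call of Afp was lost without fasted total array 1 (limma adjusted p = 0.0717), without fasted polysome array 1 (0.0585) and with arrays centred on their median (0.066). Tf measured -0.14 ± 0.066 log2 in fed dams (limma adjusted p = 0.116) and was 1.14-fold lower in fasted dams (-0.19 ± 0.066, limma adjusted p = 0.0331). The fasted call of Tf was lost without each of the fasted total arrays and without fasted polysome arrays 1 or 3 (limma adjusted p = 0.0584 to 0.0984), as well as with arrays centred on their median (0.105), no filter on dim probes (0.0595) or only the arrays compared (0.0583).

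Ahsg was 1.13-fold lower in each diet, near the threshold (limma adjusted p = 0.0468 in fed and 0.0414 in fasted dams). Its call remained in 8 of 23 alternatives in fed dams and 9 of 23 in fasted dams. Of the fits without 1 array, the fed call of Ahsg remained only without fasted total array 3 or fasted polysome array 2. The fasted call remained only without fasted total array 3 or fed polysome arrays 1 or 3. With same-numbered arrays as a fixed replicate block the limma adjusted p was 0.071 in fed and 0.0648 in fasted dams.

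Alb and Ttr did not pass in either diet. The Alb polysome arrays, at 15710 to 15984, all read under its total arrays, at 16656 to 17593. The difference was -0.12 ± 0.060 SE log2 in fed dams (95% interval -0.25 to 0.0052, limma adjusted p = 0.112) and -0.10 ± 0.060 in fasted dams (-0.23 to 0.027, limma adjusted p = 0.19). With a variance prior that follows signal level and is robust to outlying variances, limma called Alb lower in both diets (adjusted p = 0.0104 and 0.0291). In that setting, which changed both options at once, Tf was called lower in fed dams as well (limma adjusted p = 0.0234). Ttr was the 1 gene of the 10 with a higher mean on polysomes, 0.078 ± 0.065 log2 in fed dams (-0.063 to 0.22, limma adjusted p = 0.361) and 0.082 ± 0.065 in fasted dams (-0.058 to 0.22, limma adjusted p = 0.33). Its groups did not overlap in fed dams and overlapped in fasted dams.

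The groups of each gene could be put in order by mean signal. For all 10 genes but Ttr, both total groups stood above both polysome groups, and within a fraction the fed and fasted neighbours did not pass the test. Groups did not overlap between fractions for 10 of the 10 genes in fed dams, where 52.9% of all genes tested did not, and for 9 of 10 in fasted dams, where 52.6% did not. Among the 87 other genes with a mean of at least 13 log2, 18 were lower and 14 higher on polysomes in fed dams. In fasted dams 18 were lower and 19 higher, and 20.7% were lower in each diet.

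**Figure D3:**
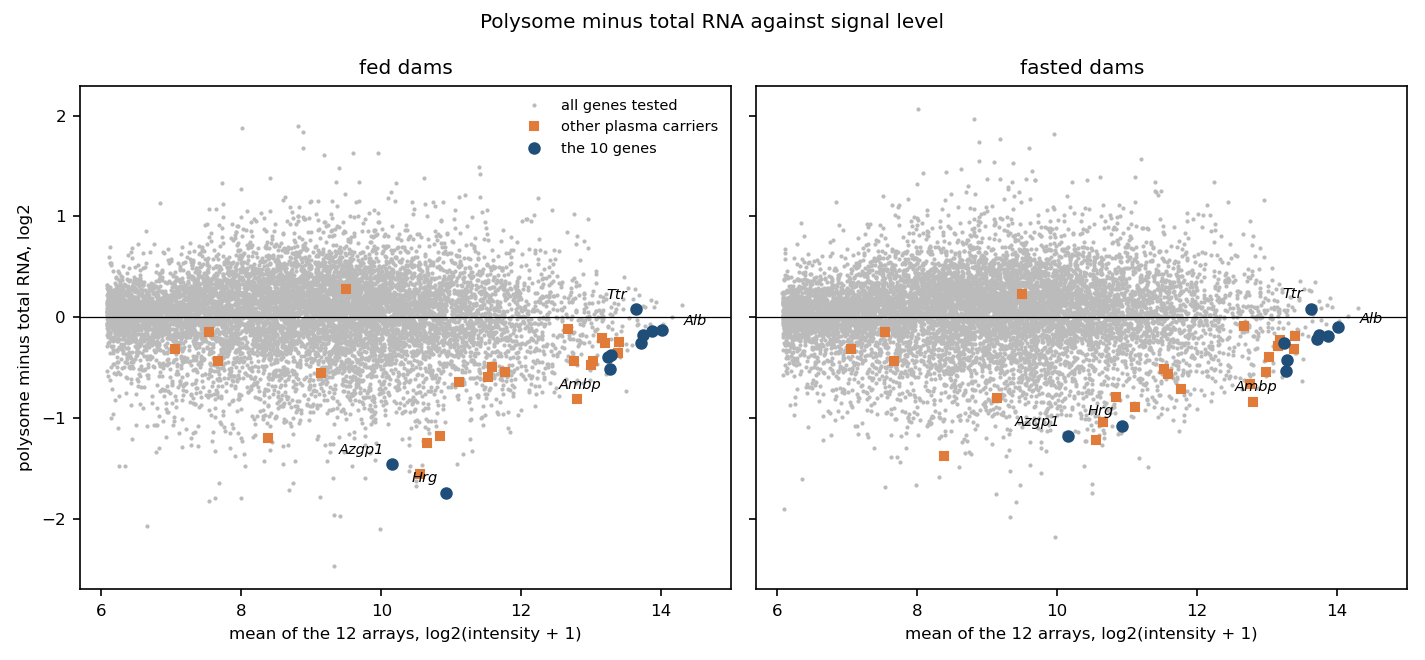
Polysome minus total RNA (log2) against the mean signal of the 12 arrays (log2(intensity + 1)) for each of 10174 genes, in fed and fasted dams; blue circles are the 10 genes and orange squares 22 other plasma carriers. The cloud narrows at the right, where 8 of the 10 genes lie, and Hrg and Azgp1 lie near its lower edge.

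The third comparison asked whether the fasting effect differed between polysome and total RNA. By limma, 0 of the 10 genes passed, and 0% of all genes tested did. Of the 10, 1 had an unadjusted p under 0.05, as 5.4% of all genes had. It was Hrg, whose polysome effect minus its total effect was 0.67 ± 0.26 SE log2 (95% interval 0.11 to 1.23, limma adjusted p = 0.856). That value joins the lower total signal after fasting with the slightly higher polysome signal, and it was 0.43 without fasted total array 3. The other 9 genes measured -0.054 to 0.27 log2 (limma adjusted p = 0.884 to 0.997). For Alb the difference was 0.022 ± 0.085 log2, with an interval of -0.16 to 0.20. The 2 fasting effects rest on 6 arrays each and share none, but they share the model's estimate of the spread. Same-numbered total and polysome arrays of a diet were also taken to be paired, so the 2 effects may not be independent.

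Other plasma carriers were taken from a list of binding proteins, of which 22 outside the 10 genes were tested. None of them passed for fasting, with 0 of 22 called in total and 0 of 22 in polysome RNA by limma. Of all genes tested, 1.03% and 2.01% were called, so 0 of 22 does not set the list apart. The nearest to passing was Itih4, an inter-alpha-trypsin inhibitor heavy chain, at -0.26 ± 0.073 log2 on polysomes (limma adjusted p = 0.0706). Shbg, the sex hormone-binding globulin, measured 0.36 ± 0.14 log2 in total RNA (limma adjusted p = 0.221, and 0.23 to 0.55 log2 over the alternatives). The list's median change was 0.066 log2 in total and 0.075 in polysome RNA.

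Between fractions most of that list was lower on polysomes. By limma 17 of 22 were lower in fed dams and 18 of 22 in fasted dams, where 19.4% and 18.2% of all genes tested were, and 0 were higher in either. The list's median was -0.46 log2 in fed and -0.53 in fasted dams. Cp, the copper-carrying ferroxidase ceruloplasmin, was lower by -1.56 ± 0.15 log2 in fed dams (limma adjusted p = 6.47e-06) and -1.22 ± 0.15 in fasted dams (limma adjusted p = 3.43e-05). Mbl1, a mannose-binding lectin, was lower by -1.25 ± 0.14 and -1.04 ± 0.14 log2 in fed and fasted dams. The family members Gc and Afm were lower too, Gc by -0.47 ± 0.069 and Afm by -0.56 ± 0.12 log2 in fed dams (limma adjusted p = 1.28e-04 and 0.00216). Kng1 and Kng2 were lower by -0.36 ± 0.067 and -0.43 ± 0.075 log2 in fed dams (limma adjusted p = 8.26e-04 and 4.91e-04). Pzp was lower by -0.52 ± 0.066 log2 in fed dams (limma adjusted p = 4.61e-05). The 4 carriers that did not pass in either diet were Selenop, Shbg, Pon1 and Lrg1, and Pon1, a lactone-cleaving enzyme of high-density lipoprotein, had a positive value (0.28 ± 0.14 log2 in fed dams, limma adjusted p = 0.125).

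Acute phase genes, of which A2m is one in the rat, gave a similar count. Of 15 tested outside the 10 genes, 0 passed for fasting in either RNA, beside 1.03% of all genes in total RNA and 2.01% on polysomes. Between fractions, 13 of the 15 were lower on polysomes in each diet with 0 higher, where 19.4% of all genes in fed and 18.2% in fasted dams were lower. Of these 15, 6 also belong to the carrier list. Lbp, which binds lipopolysaccharide, and the serpin Serpina3n measured 0.39 ± 0.10 and 0.90 ± 0.32 log2 for fasting in total RNA (limma adjusted p = 0.0821 and 0.188), and Serpina3n measured 0.50 without fasted total array 1. On polysomes in fed dams they were lower by -0.91 ± 0.10 and -1.14 ± 0.32 log2 (limma adjusted p = 1.69e-05 and 0.0114). The Serpina3n call was lost without fed total array 2 and without fed polysome array 3 (limma adjusted p up to 0.0535). Hpx, the haem carrier hemopexin, was lower by -0.81 ± 0.087 log2 (limma adjusted p = 1.28e-05).

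Transcription factors that act on the Alb and Afp genes were a further list. Of 16 tested, 5 were higher on polysomes in fed dams, where 24.1% of all genes tested were, a share near that background, and 10 in fasted dams, where 25.5% were. None of the 16 was called lower in either diet, and the list's median was 0.17 log2 in fed and 0.33 in fasted dams, beside 0.042 and 0.054 over all genes. Foxa3, a forkhead factor of liver genes, was higher by 0.83 ± 0.18 log2 in fed dams (limma adjusted p = 0.00234) and 0.56 ± 0.18 in fasted dams (limma adjusted p = 0.0239). The fasted call of Foxa3 was lost without fasted total array 3 and without fasted polysome arrays 1 or 2 (limma adjusted p up to 0.106). Nr5a2, a nuclear receptor that activates Afp, was higher by 0.46 ± 0.092 and 0.40 ± 0.092 log2 (limma adjusted p = 0.00144 and 0.00342). For fasting, 0 of 16 passed in total RNA and 1 of 16 in polysome RNA, where 1.03% and 2.01% of all genes tested did. The 1 was Hnf4g, a hepatocyte nuclear factor, which rose by 0.55 ± 0.11 log2 (limma adjusted p = 0.0305). The Hnf4g call was lost in 5 of 23 alternatives, with limma adjusted p up to 0.126: without fed polysome arrays 2 or 3, without fasted polysome arrays 1 or 3, and with only the arrays compared. The share of factors against that of carriers was not tested.

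**Figure D4:**
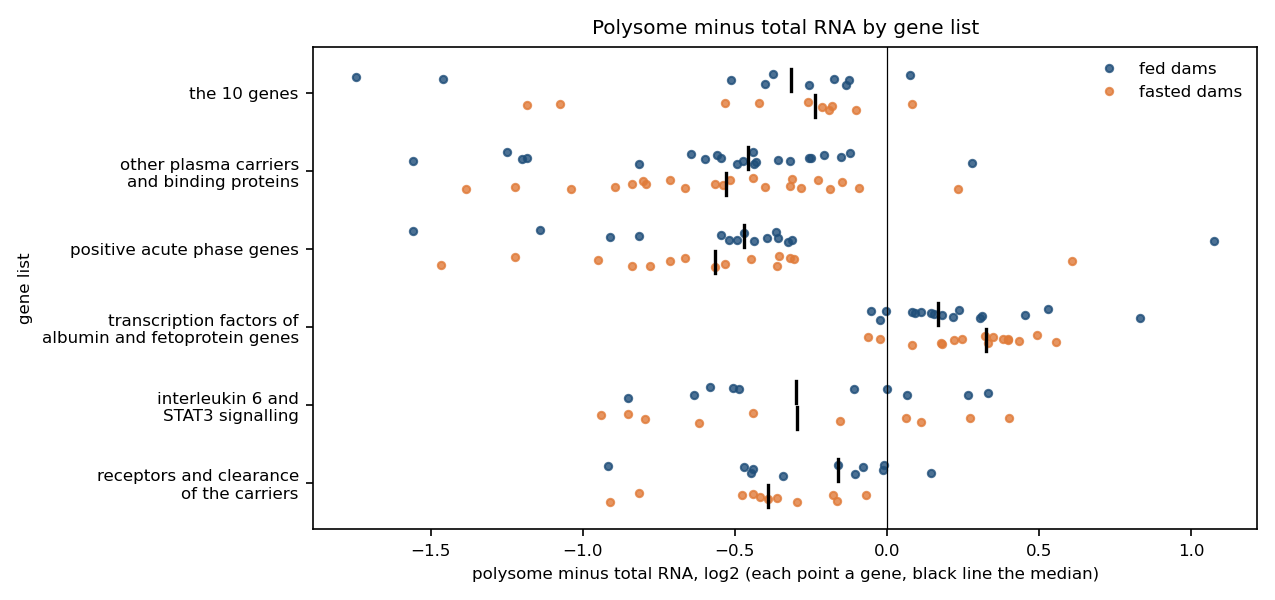
Polysome minus total RNA (log2) of each gene in the 10 genes and in 5 gene lists that exclude them, in fed (blue) and fasted (orange) dams, with the median as a black line. The medians of the carrier and acute phase lists lie between -0.57 and -0.46, and those of the transcription factors at 0.17 and 0.33.

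Cell type markers were counted between fractions in the same way, against 19.4% lower and 24.1% higher of all genes in fed dams, and 18.2% and 25.5% in fasted dams. Of 11 hepatocyte markers tested, 6 were lower and 1 higher on polysomes in fed dams, and 7 lower and 1 higher in fasted dams. Their medians were -0.22 log2 in fed and -0.19 in fasted dams. Apoh and Rbp4 of these markers are also in the carrier list, Fga and Fgb in the acute phase list and Hnf4a among the transcription factors. Endothelial markers were lower for 7 of 8 in fed and 8 of 8 in fasted dams, stellate and fibroblast markers for 8 and 7 of 10, and macrophage markers for 5 and 6 of 10, with 1 macrophage marker higher in fasted dams. Megakaryocyte markers were lower for 2 of 5 in each diet and higher for 1 of 5 in fed dams. Neutrophil markers were lower for 3 of 8 in fed and 2 of 8 in fasted dams and higher for 2 of 8 in each. Cholangiocyte markers were lower for 2 and 1 of 4, and exocrine pancreas markers for 1 of 6 in each diet. Erythroid markers were lower for 1 of 7 and higher for 1 of 7 in each diet, with medians of -0.036 and -0.015 log2, shares under those of all genes. The part of these values in the values of the 10 genes was not tested.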

How the data were processed

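The deposited table holds 1 intensity for each probe on each array, a product of RMA by the authors, as the submitters' processing notes name it. Its version and the genome build are not given in the sources used here. Values between 3.62 and 21344 showed a linear scale, so log2(value + 1) was analysed. Of 28826 probes, 15209 had exactly 1 gene symbol; names were updated by Entrez identifier (15178 matched). The brightest probe of a gene was used, and genes under the 40th percentile of mean signal (6.07 log2) were left out, leaving 10174. The 4 group means were estimated from the 12 arrays together by limma (version 3.58.1, R 4.3.3), leaving 8 residual degrees of freedom beside 5.16 from the eBayes prior, with two-sided tests, Benjamini-Hochberg adjustment over all genes tested and a threshold of 0.05. The number of arrays limits the precision. The p-values rest on the spread between these samples and on the eBayes prior, which draws each gene's spread towards a common value. For Alb the SE of a difference, 0.060 log2, exceeded the residual SD of 0.023. Its intervals and p-values therefore rest largely on that prior. The SE also exceeded the residual SD for Afp, Ttr, Tf, Ahsg, A2m and Fetub (0.065 to 0.071 against 0.046 to 0.065 log2). The prior thus weighs on their p-values too.

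The 10 genes, the lists and the markers were chosen with earlier results of these data known. All 10 genes are named; of each other list, at most the 4 called members with the largest change or, with none called, the 2 with the smallest p, and further members of a family where the text compares relatives. Selenop, Pon1 and Lrg1 were named after their values were seen. Tested on simulated arrays of 10174 genes, limma found 46% of 1.3-fold and 96% of 2-fold diet changes in total RNA. These changes were added in full to genes drawn at random, with no limit at the top of the signal range. The rates therefore do not describe the brightest genes in particular, nor Azgp1 with its wide spread. Replicate numbers come from the labels. Within a diet, same-numbered total and polysome arrays deviated together from their group means (correlation 0.154 to 0.362 over 6 pairs). Differently numbered ones of a diet lay at -0.219 to -0.0227. Arrays of different diets reached 0.202 across fractions and 0.253 within a fraction, above the lowest of the 6 pairs. The numbers were taken to pair the total and polysome arrays of a diet, an inference from the data. Alternatives were other filters, scalings, probe rules, log scale and priors, only the arrays compared, replicate blocks, and arrays left out. Promoter windows are from RefSeq (GRCr8). Figures used Python 3.11.15 and matplotlib 3.10.9.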

Additional observations from a re-analysis of the deposited data

How the results depend on the processing

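For fasting and its difference between fractions, 0 of the 10 genes were called in any alternative. The count of the 10 genes lower on polysomes, 7 in fed and 8 in fasted dams, ranged from 6 to 7 and from 5 to 8 when 1 array was left out. In fasted dams it was 5 with arrays centred on their median. It rose to 9 in each diet with the variance prior that follows signal level and is robust to outlying variances. With total and polysome arrays of one number as a random replicate block it stayed at 7 and 8, and as a fixed replicate block it was 6 and 7, Ahsg being lost. No called gene turned its sign. Over 1140 values of the 10 genes under an alternative, 40 lost and 3 gained the call; for the named genes of the lists, 28 of 2383 lost and 31 gained it. The counts over all genes moved more: in total RNA the 105 called for fasting fell to 17 without fasted total 1 and to 42 when the fit held only the arrays compared. They were 199 when fed polysome 1 and fasted polysome 2 were both omitted. In polysome RNA the 205 called fell to 11 without fed polysome 2 or without fasted polysome 3 and to 40 with only the arrays compared. They rose to 1266 when fed polysome 1 and fasted polysome 2 were both omitted. These are the 2 arrays whose omission singly gave the highest counts, 515 and 755. Between fractions, 4425 and 4446 called genes stayed within 3619 and 5041. The share of fasting calls on polysomes that were higher was 79%, against 68.4% after quantile normalization and 87.1% with arrays centred on their median. It ran from 45.5% to 82% when 1 array was left out. Whether the brightest probes can show the full size of a difference was not tested.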

Other observations

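Receptors and clearance proteins of the plasma carriers were a mixed list. Of 11 tested, 0 passed for fasting in either RNA by limma, beside 1.03% of all genes in total RNA and 2.01% on polysomes. Fcgrt, the receptor that recycles albumin, measured 0.38 ± 0.087 log2 in total RNA (limma adjusted p = 0.056). Between fractions, 4 of 11 were lower on polysomes in fed dams and 7 of 11 in fasted dams, with 0 higher, where 19.4% and 18.2% of all genes tested were lower. Slc40a1, the iron exporter ferroportin, was lower by -0.92 ± 0.072 log2 in fed dams (limma adjusted p = 1.56e-06), and Tfrc, the transferrin receptor, by -0.47 ± 0.081 (limma adjusted p = 4.57e-04). Interleukin 6 and STAT3 signalling drives A2m in the acute phase. Of 10 genes of that list, 0 passed for fasting, again beside 1.03% of all genes in total RNA and 2.01% on polysomes. Il6r, the interleukin 6 receptor, measured 0.42 ± 0.098 log2 in total RNA (limma adjusted p = 0.056). Between fractions, 5 of 10 were lower and 1 higher in each diet. Of all genes, 19.4% were lower and 24.1% higher in fed dams, and 18.2% and 25.5% in fasted dams. Osmr, the oncostatin M receptor, was lower by -0.85 ± 0.16 log2 in fed dams (limma adjusted p = 7.88e-04).

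The genes whose pattern over the 12 arrays was most like that of Alb were Pgap1, Ybx1 and Dus2, with Pearson r of 0.966, 0.966 and 0.963. For Afp they were Clec4f, Kng1 and Btd (0.985, 0.979 and 0.978), and for A2m Sel1l, Atp6ap2 and Cxadr (0.992, 0.991 and 0.99). The 12 points fall into 2 fractions and 2 diets and share their arrays between genes, so r is given as a description only.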
